A study of Mus musculus with 4 samples.

Results

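The genes described here are 9 genes of blood coagulation and fibrinolysis in mouse macrophage-like cells. They comprised the clotting initiators *F3* and *F7*, the clotting protease gene *F10*, the coagulation inhibitors *Tfpi* and *Thbd*, and the fibrin cross-linking subunit *F13a1*. The others were the urokinase system genes *Plau*, *Plaur* and *Serpinb2*. Each of the 9 genes was taken as the rows of the expression table that carry its symbol, with the transcripts of a gene ID added together. They were 9 of 23920 genes in the table. The values are FPKM, sequenced fragments scaled by transcript length and by the mapped fragments of the library. All 9 genes reached 1 FPKM in at least 1 library, as did 10764 genes in all. The 9 were picked with their levels in these same libraries known, so their differences between libraries are given as a description, with no test.

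The study examined how IL-3 and the transcription factor STAT5 act on RANKL-driven osteoclast formation, and sequenced RNA from BMMs, macrophage-like cells grown from mouse bone marrow, after 24 h of culture. The 4 libraries, 1 per condition, came from *Stat5* cKO cells (*Stat5* fl/fl with *Mx1*-Cre, both *Stat5a* and *Stat5b* floxed) given M-CSF, RANKL and IL-3 (named RANKL+IL-3), and from *Stat5* fl/fl cells given RANKL+IL-3 on M-CSF, RANKL on M-CSF (named RANKL) or M-CSF only. M-CSF at 30 ng/mL was present in all 4 cultures, RANKL was used at 100 ng/mL and IL-3 at 1 ng/mL. The labels give all mice as male C57BL/6 of 8 weeks and the fl/fl cells as wild type, while the methods give a younger age for mice used as a source of bone marrow. The *Mx1* promoter that drives Cre is inducible by interferon and active in many tissues, so the deletion was not limited to macrophages, and both genotypes had received poly I:C. No source used here says whether cells of several mice were pooled. A cKO library without IL-3 was not analysed here, so a low level in the cKO library cannot be assigned to the response to IL-3 rather than to the genotype itself. With 1 library per condition there was no replicate check, and no p-value between conditions was computed.

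Coagulation starts when tissue factor (*F3*) on a cell surface meets factor VII, and the pair activates factor X, which then turns prothrombin into thrombin, the protease that makes fibrin. Tissue factor pathway inhibitor and thrombomodulin restrain this cascade, and factor XIII ties fibrin strands together. Urokinase (*Plau*), held at the cell surface by its receptor (*Plaur*) and inhibited by plasminogen activator inhibitors, turns plasminogen into plasmin, which dissolves fibrin. Monocytes and macrophages are known sources of tissue factor, factor XIII-A, urokinase, its receptor and PAI-2 (*Serpinb2*).

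The libraries held an estimated 36.65 M fragments in cKO cells with RANKL+IL-3, 36.7 M and 35.1 M in fl/fl cells with RANKL+IL-3 and with RANKL, and 33.25 M in fl/fl cells with M-CSF. *Stat5a* stood at 0.168 FPKM in the cKO library against at least 9.89 FPKM in each of the 3 fl/fl libraries, and *Stat5b* at 0.191 against at least 7.80 FPKM, in the direction of the labels. The cell type label reads osteoclast for all 4 libraries, although the title of the M-CSF library has osteoclast precursor. Of 10 osteoclast markers 8 reached 1 FPKM, and their summed level was 518 FPKM in the cKO library and 141, 1277 and 45.9 FPKM in the fl/fl libraries with RANKL+IL-3, with RANKL and with M-CSF, while *Calcr* was at 0 in all 4. All 10 macrophage markers were detected in every library, at summed levels of 12800, 18280, 8502 and 23850 FPKM in the same order. Markers of lymphocytes summed to at most 1.12 FPKM, of stromal cells to at most 4.89 FPKM, and of basophils and mast cells to at most 3.38 FPKM. In bulk RNA, fewer cells of a type and less RNA per cell cannot be told apart.

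The plot of the 9 genes by library shows 3 kinds of course. *F3*, *F7*, *F10*, *Plaur* and *Serpinb2* were highest in fl/fl cells with RANKL+IL-3, *Plau*, *F13a1* and *Thbd* were highest in fl/fl cells with M-CSF only, and *Tfpi* stayed between 11.1 and 15.9 FPKM. Error bars there, and the intervals in the text, are approximate 95% intervals from the number of fragments that the estimated depth implies for each gene. They cover counting error only and say nothing of the spread between cultures or mice.

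**Figure D1:**
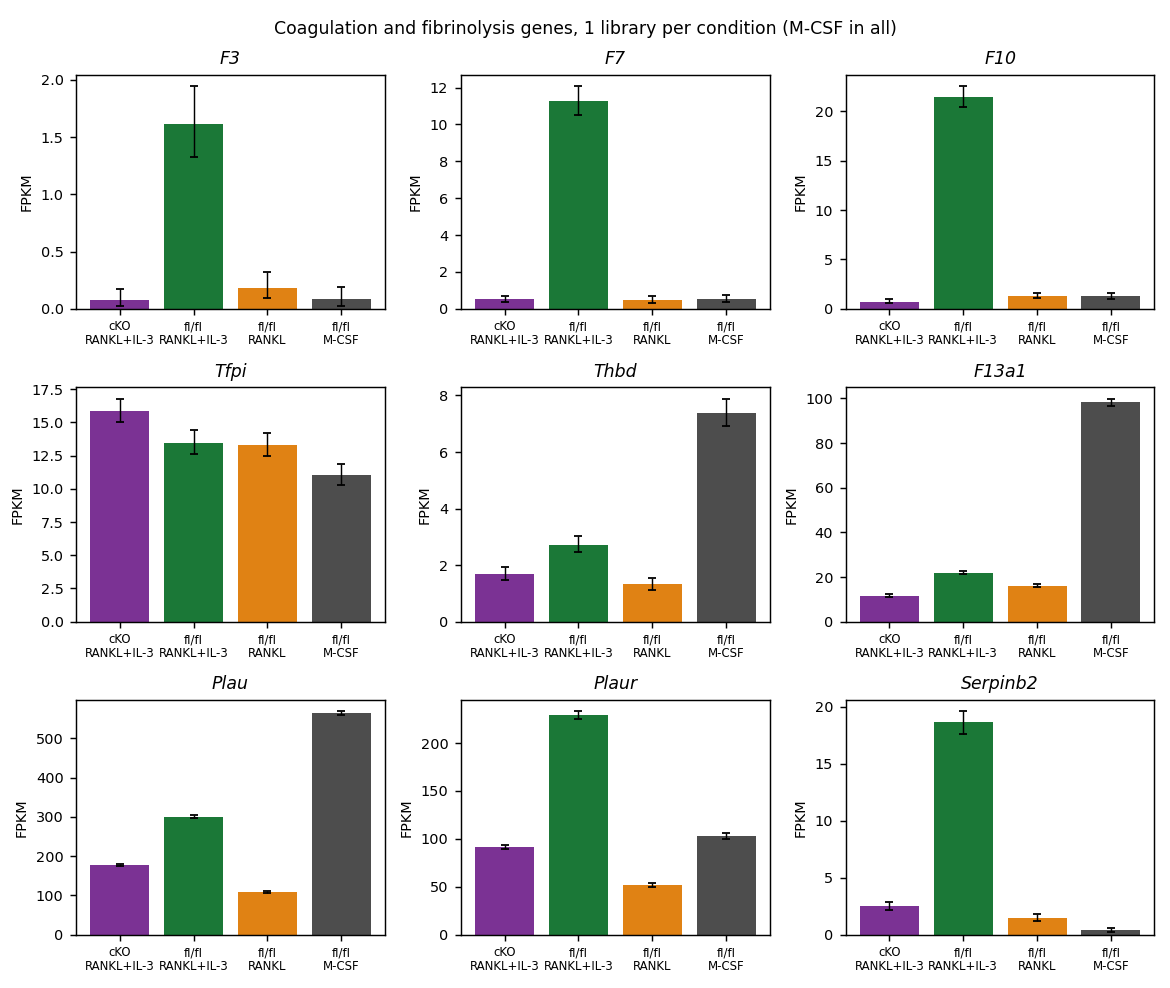
FPKM of each of the 9 genes (vertical axis, a separate linear scale from 0 in each panel) in the 4 libraries, 1 library per bar, with bars for approximate 95% counting intervals. *F10* stood at 21.5 FPKM in fl/fl cells with RANKL+IL-3 and at 1.29 FPKM or less in the other 3 libraries, and *F13a1* at 98.2 FPKM with M-CSF only and at 22.0 FPKM or less in the others.

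On the log2(FPKM + 1) scale, which understates the change of genes near or below 1 FPKM, 5 of the 9 genes were at least 2-fold lower in cKO than in fl/fl cells with RANKL+IL-3, namely *F10*, *F7*, *F3*, *Plaur* and *Serpinb2*, against a background of 4.28% of all 10764 genes. None of the 9 was at least 2-fold higher in the cKO library, where 2.12% of all genes were. The median log2 ratio of the 9 genes was -1.28, and that of all genes 0.13. When IL-3 was added to RANKL in fl/fl cells, 6 of the 9 were at least 2-fold higher (*F10*, *F7*, *F3*, *Plau*, *Plaur* and *Serpinb2*; background 6.11%), and none was at least 2-fold lower (background 3.47%), with medians of 1.45 for the 9 and -0.15 for all genes. With RANKL against M-CSF only, 3 of the 9 were at least 2-fold lower (*Plau*, *F13a1* and *Thbd*; background 6.87%) and none at least 2-fold higher (background 5.44%), with medians of -0.07 and 0.14. The genes were picked on these contrasts, so nothing is read from these counts beyond the description. The cKO and IL-3 comparisons share the fl/fl library with RANKL+IL-3, and the IL-3 and RANKL comparisons share the fl/fl library with RANKL.

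**Figure D2:**
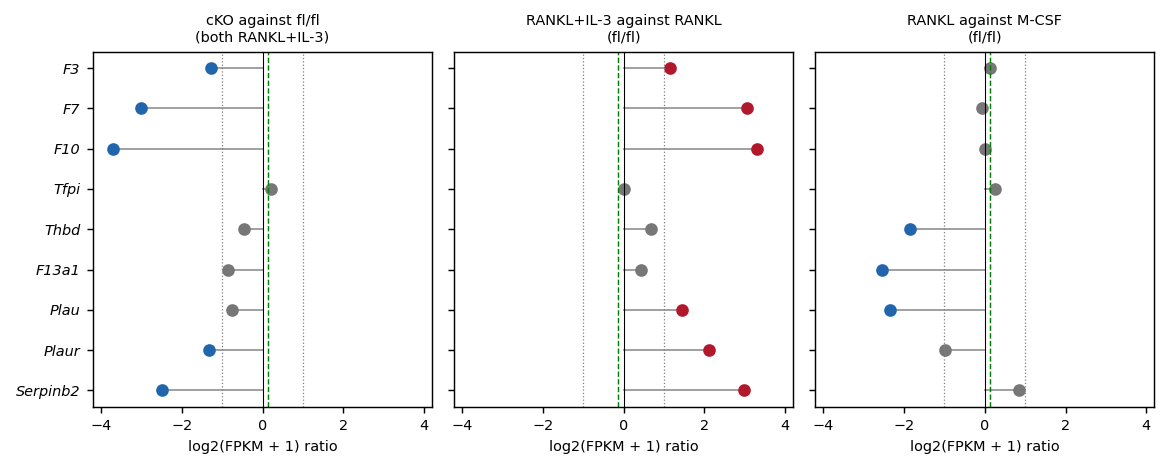
Ratios of the 9 genes on the log2(FPKM + 1) scale (horizontal axis) in the 3 comparisons, 1 point per gene, coloured red or blue where at least 2-fold apart (dotted lines), with the median of all genes as a dashed green line. *F10* had -3.70 in cKO against fl/fl cells and 3.29 with IL-3 added to RANKL, whereas *F13a1*, *Plau* and *Thbd* had -2.54, -2.35 and -1.85 with RANKL against M-CSF.

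*F10* encodes factor X, the protease at which the initiating pathways of coagulation meet (gene ID 14058, GRCm38 chr8:13037308-13056676). Its mRNA stood at 0.725 FPKM (interval 0.544 to 0.961) in cKO cells with RANKL+IL-3, 21.5 FPKM (20.4 to 22.6) in fl/fl cells with RANKL+IL-3, 1.29 FPKM (1.05 to 1.59) in fl/fl cells with RANKL and 1.28 FPKM (1.02 to 1.59) in fl/fl cells with M-CSF. The fl/fl library with IL-3 stood apart from the other 3, and any difference between RANKL and M-CSF was within counting error (ratio 1.01, interval 0.744 to 1.38). The level with IL-3 was 16.6-fold that with RANKL (13.4 to 20.6), and the cKO library was 29.6-fold below it (22.2 to 39.6), at 3.38% of the fl/fl level. By log2 ratio *F10* was 15th from the lowest of 10764 genes in cKO against fl/fl cells and 42nd from the highest with IL-3 added. Of its 2 transcripts, NM_001242368 held 91.7% of the level in fl/fl cells with RANKL+IL-3, and NM_007972 held the remainder, 1.79 FPKM.

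*F7* encodes factor VII, the protease that tissue factor binds (gene ID 14068, chr8:13025506-13035809). Its level was 0.515 FPKM in cKO cells with RANKL+IL-3, 11.3 FPKM in fl/fl cells with RANKL+IL-3, 0.474 FPKM with RANKL and 0.552 FPKM with M-CSF. Again only fl/fl cells with IL-3 stood apart, and the counting intervals of the other 3 libraries overlapped and together spanned 0.323 to 0.769 FPKM. The fold was 23.8 (16.6 to 35.2) for IL-3 added to RANKL, and the cKO library lay 21.9-fold lower (15.7 to 31.8). *F10* and *F7* lie side by side in the same orientation, 1498 bases apart, and the ratio of *F10* to *F7* FPKM was 1.41 in the cKO library and 1.90, 2.73 and 2.33 in fl/fl cells with RANKL+IL-3, with RANKL and with M-CSF.

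*F3* encodes tissue factor, the membrane protein that starts coagulation (gene ID 14066, chr3:121723537-121735052). It was the scarcest of the 9 in every library, with 0.0772 FPKM in cKO cells with RANKL+IL-3, 1.61 FPKM in fl/fl cells with RANKL+IL-3, 0.178 FPKM with RANKL and 0.0853 FPKM with M-CSF. These levels rest on an estimated 5, 111, 12 and 5 fragments in the same order. The fl/fl library with IL-3 was 9.08-fold above that with RANKL (4.87 to 17.6), and the cKO library 20.9-fold below it (9.22 to 69.6), although the log2(FPKM + 1) ratios were only 1.15 and -1.28 because of the low level. The difference between RANKL and M-CSF, 2.08-fold with an interval of 0.746 to 8.24, could not be resolved at this depth. *F3* was also the gene nearest to the minimum, as its highest level of 1.61 FPKM was followed by the 7.40 FPKM of *Thbd* and the 11.3 FPKM of *F7*.

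The urokinase system genes differed from one another in their course. *Serpinb2*, which encodes the plasminogen activator inhibitor PAI-2 (gene ID 18788, chr1:107500892-107525600), had 2.50 FPKM in cKO cells with RANKL+IL-3, 18.6 FPKM in fl/fl cells with RANKL+IL-3, 1.49 FPKM with RANKL and 0.387 FPKM with M-CSF. Of the 9 genes, only *Serpinb2* and *Tfpi* had their lowest level with M-CSF. Its level with RANKL was 3.86-fold that with M-CSF (2.52 to 6.35), but the log2(FPKM + 1) ratio of 0.85 missed the 2-fold threshold. With IL-3 it was 12.5-fold higher than with RANKL (10.2 to 15.3) and 48.1-fold higher than with M-CSF, and the cKO library was 7.46-fold below fl/fl cells (6.39 to 8.78). Transcript NM_011111 held 25.8% of the level in fl/fl cells with RANKL+IL-3 and 20.4% with RANKL. NM_001174170 held nearly all of it in cKO cells and with M-CSF, where the gene had an estimated 25 fragments.

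*Plaur* encodes the urokinase receptor (gene ID 18793, chr7:24460937-24475970). Its levels were 91.4 FPKM in cKO cells with RANKL+IL-3, 229 FPKM in fl/fl cells with RANKL+IL-3, 51.8 FPKM with RANKL and 103 FPKM with M-CSF. IL-3 with RANKL gave 4.42 times the level of RANKL (4.24 to 4.61) and 2.23 times that of M-CSF, and the cKO library was 2.51-fold below fl/fl cells (2.42 to 2.59). With RANKL against M-CSF the log2 ratio of -0.97 lay just within the threshold, and it passed it, at -1.14, when libraries were scaled to a common median ratio.

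*Plau* encodes urokinase, the plasminogen activator (gene ID 18792, chr14:20836662-20843388), and was the most abundant of the 9 in every library. It had 177 FPKM in cKO cells with RANKL+IL-3, 301 FPKM in fl/fl cells with RANKL+IL-3, 109.5 FPKM with RANKL and 564 FPKM with M-CSF. Unlike *Plaur*, its level with RANKL+IL-3 did not reach that with M-CSF, but was 0.533 of it. RANKL gave a level 5.15-fold below M-CSF (5.03 to 5.27), IL-3 with RANKL was 2.74-fold above RANKL (2.68 to 2.81), and the cKO library was 1.70-fold below fl/fl cells (1.66 to 1.73).

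Ratios between these genes within a library therefore differed. *Plau* over *Plaur* was 1.94 in the cKO library, 1.31 in fl/fl cells with RANKL+IL-3, 2.12 with RANKL and 5.49 with M-CSF. *Plau* over its inhibitor *Serpinb2* was 71.0 in the cKO library, 16.1 in fl/fl cells with RANKL+IL-3, 73.3 with RANKL and 1456 with M-CSF. Fl/fl cells with RANKL+IL-3 had the lowest of each ratio.

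*F13a1* encodes the catalytic A subunit of factor XIII (gene ID 74145, chr13:36867178-37050244). Its mRNA expression was 11.7 FPKM in cKO cells with RANKL+IL-3, 22.0 FPKM in fl/fl cells with RANKL+IL-3, 16.1 FPKM with RANKL and 98.2 FPKM with M-CSF. The M-CSF library stood far above the 3 with RANKL, 6.11-fold above RANKL alone (5.84 to 6.39). IL-3 with RANKL was 1.37-fold above RANKL, and the cKO library 1.88-fold below fl/fl cells, both under the threshold. Antisense genes *Gm49144* and *Gm30489* overlap *F13a1*, and the sources used here do not say whether strand was used in counting.

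*Thbd* encodes thrombomodulin, the receptor that turns thrombin to the activation of protein C (gene ID 21824, chr2:148404471-148408188). It had 1.69 FPKM in cKO cells with RANKL+IL-3, 2.73 FPKM in fl/fl cells with RANKL+IL-3, 1.33 FPKM with RANKL and 7.40 FPKM with M-CSF. The level with RANKL was 5.58-fold below that with M-CSF (4.75 to 6.61). With IL-3 the FPKM level was 2.06-fold that of RANKL (1.72 to 2.48), which on the log2(FPKM + 1) scale was 0.68 and under the threshold.

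*Tfpi* encodes tissue factor pathway inhibitor (gene ID 21788, chr2:84432855-84476775). It had 15.9 FPKM in cKO cells with RANKL+IL-3, 13.5 FPKM in fl/fl cells with RANKL+IL-3, 13.3 FPKM with RANKL and 11.1 FPKM with M-CSF. No comparison exceeded a log2 ratio of 0.25, and a like absence of 2-fold differences was the case for 84.2% of all genes. The transcript NM_011576 made up 70.6% to 79.8% of its level. *Tfpi* exceeded *F3* by 205-fold in the cKO library, 8.35-fold in fl/fl cells with RANKL+IL-3, 75-fold with RANKL and 130-fold with M-CSF. In the cKO, RANKL and M-CSF libraries *F3* rested on an estimated 5, 12 and 5 fragments, with overlapping counting intervals. Differences among the ratios of those libraries were therefore not resolved.

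Against fl/fl cells with RANKL, the cKO library with IL-3 did not place the genes alike. *F10* was at 0.561 of the RANKL level in the cKO library, *F7* at 1.09 and *F3* at 0.434, the last 2 with overlapping counting intervals. *Plau*, *Plaur* and *Serpinb2* were 1.62-fold, 1.76-fold and 1.67-fold above the RANKL level in the cKO library. These libraries differ in both genotype and IL-3, which cannot be told apart here.

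The scatter of the pair of comparisons that share no library sets the cKO ratio of every gene against its RANKL ratio. *F7*, *F10* and *F3* lay at RANKL ratios of -0.07, 0.01 and 0.12 and cKO ratios of -3.02, -3.70 and -1.28, and *Serpinb2* at 0.85 and -2.49. *Thbd*, *F13a1* and *Plau* lay at RANKL ratios of -1.85, -2.54 and -2.35 with cKO ratios of -0.47, -0.86 and -0.76. On the log2(FPKM + 1) scale, *F10*, *F7*, *F3*, *Plaur* and *Serpinb2* were within 2-fold for RANKL, up with IL-3 added and down in the cKO library. This course was shared by 171 genes, 1.59% of all. *Plaur* and *Serpinb2* lay near the 2-fold limit for RANKL, at -0.97 and 0.85, and *Serpinb2* was past it in FPKM (3.86-fold). The course of *F13a1* and *Thbd* was shared by 321 genes (2.98%) and that of *Plau* by 176 genes (1.64%).

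**Figure D3:**
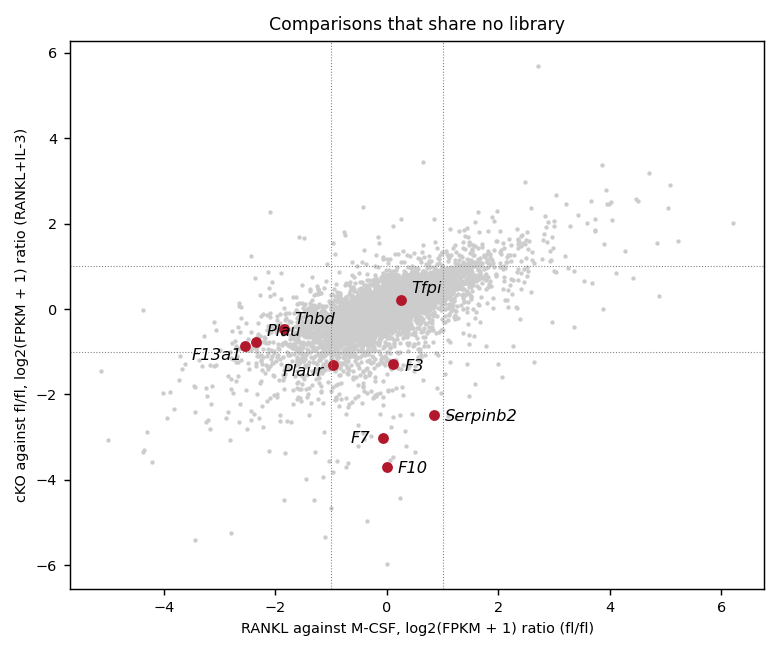
All 10764 genes (grey) and the 9 coagulation and fibrinolysis genes (red) by their log2(FPKM + 1) ratio of RANKL against M-CSF in fl/fl cells (horizontal axis) and of cKO against fl/fl cells with RANKL+IL-3 (vertical axis), with dotted lines at 2-fold. *F10* and *F7* lie near 0 on the horizontal axis and at -3.70 and -3.02 on the vertical one, while *F13a1*, *Plau* and *Thbd* lie to the left with vertical values from -0.86 to -0.47.

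Sequences before the transcription start were read for the 5 genes that were apart in both the IL-3 and cKO comparisons, since they shared a course. Over all genes, 409 of 10764 (3.8%) were at least 2-fold higher with IL-3 added and at least 2-fold lower in the cKO library. They are the 250 bases before a start listed in the RefSeq promoter table (build GRCm38.p6, plus strand, 5′ to 3′), at chr8:13037058-13037307 for *F10*, chr8:13025784-13026033 for *F7*, chr3:121723287-121723536 for *F3*, chr7:24462233-24462482 for *Plaur* and chr1:107511173-107511422 for *Serpinb2*. The windows of *F7*, *Plaur* and *Serpinb2* lie inside the gene spans given above, which begin further upstream in the RefSeq gene table. Capitals mark every match to the AP-1 letters TGANTCA, to the PU.1 letters GAGGAA and to the TATA box letters TATAAA, on either strand, so that PU.1 letters on the other strand read TTCCTC.
F10: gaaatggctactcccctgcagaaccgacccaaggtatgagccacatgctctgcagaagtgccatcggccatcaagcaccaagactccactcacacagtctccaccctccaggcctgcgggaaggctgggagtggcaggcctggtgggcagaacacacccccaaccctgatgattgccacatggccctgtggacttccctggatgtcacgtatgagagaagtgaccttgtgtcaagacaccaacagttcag
F7: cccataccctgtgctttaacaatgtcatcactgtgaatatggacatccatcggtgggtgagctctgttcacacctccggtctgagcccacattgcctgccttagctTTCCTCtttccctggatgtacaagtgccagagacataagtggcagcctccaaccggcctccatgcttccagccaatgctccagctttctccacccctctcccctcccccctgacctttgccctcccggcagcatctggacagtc
F3: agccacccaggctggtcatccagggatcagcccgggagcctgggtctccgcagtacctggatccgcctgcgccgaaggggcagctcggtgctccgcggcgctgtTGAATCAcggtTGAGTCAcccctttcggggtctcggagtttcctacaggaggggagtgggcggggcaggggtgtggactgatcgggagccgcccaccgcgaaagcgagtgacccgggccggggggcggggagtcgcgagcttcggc
Plaur: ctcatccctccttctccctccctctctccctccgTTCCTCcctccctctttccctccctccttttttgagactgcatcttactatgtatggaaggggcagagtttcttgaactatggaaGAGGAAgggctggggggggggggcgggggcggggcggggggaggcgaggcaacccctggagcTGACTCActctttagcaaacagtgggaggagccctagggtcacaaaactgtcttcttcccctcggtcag
Serpinb2: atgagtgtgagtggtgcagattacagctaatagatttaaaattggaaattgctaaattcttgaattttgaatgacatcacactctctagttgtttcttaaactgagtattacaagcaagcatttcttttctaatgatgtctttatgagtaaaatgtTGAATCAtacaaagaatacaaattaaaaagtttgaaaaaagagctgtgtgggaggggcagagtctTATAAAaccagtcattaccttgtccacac

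Over windows of 300 bases, from 250 before the start to 50 after it, the STAT5 letters TTCNNNGAA were searched on both strands as well as the E-box CANNTG, and 32851 windows of the whole table gave the shares that follow. The windows numbered 10 for 7 of the 9 genes. *Thbd* and *Plau* had none in the table. A gene was counted if any of its windows held a match, and *Serpinb2*, *Tfpi* and *F13a1* had more than 1 window. The shares are of single windows, so they are not in the same unit as the counts of genes. The STAT5 letters were in windows of 1 gene, *Serpinb2*, and in 8.30% of all windows. In *Serpinb2* they began 10 bases after the first of the starts listed for it in the promoter table, which is 77 bases before the other listed start, in this site with the match in capitals at chr1:107511423-107511451.
Serpinb2 STAT5 match: agtgccagctTTCCAAGAAgcatttcctg
AP-1 letters were in windows of 3 genes, *Serpinb2*, *F3* and *Plaur* (7.81% of all windows), with matches beginning 146 and 135 bases before the start of *F3*, 69 before that of *Plaur* and 94 before the first listed start of *Serpinb2*. PU.1 letters were in windows of 4 genes, *F7*, *Plaur*, *F13a1* and *Tfpi* (28.3%), TATA letters in those of 3, *Serpinb2*, *F3* and *Tfpi* (13.6%), and E-boxes in those of 4, *F7*, *F10*, *F13a1* and *Tfpi* (72.3%). The *F10* window held E-boxes and no other match. A match is a description of letters and not a site in use, and the absence of a match says only that these letters are not in this window.

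Neighbouring genes within 20 kb were set beside the members. *Mcf2l*, a guanine nucleotide exchange factor gene 5003 bases before *F7*, had 0.680 FPKM in cKO cells with RANKL+IL-3, 5.38 FPKM in fl/fl cells with RANKL+IL-3, 0.838 FPKM with RANKL and 2.67 FPKM with M-CSF. *Proz*, which encodes protein Z, a vitamin K-dependent cofactor, lies 3907 bases after *F10* and had 0.646, 1.19, 0.627 and 0.884 FPKM in the same order. Along this stretch the fl/fl library with RANKL+IL-3 was highest for all 4 genes, with log2 ratios in cKO against fl/fl cells of -1.92 for *Mcf2l*, -3.02 for *F7*, -3.70 for *F10* and -0.41 for *Proz*. *Serpinb10*, another serpin gene, begins 3393 bases after *Serpinb2* in RefSeq and had 0.916 FPKM in cKO cells with RANKL+IL-3, 5.80 FPKM in fl/fl cells with RANKL+IL-3, 0.475 FPKM with RANKL and 1.87 FPKM with M-CSF. It was highest in the same library as *Serpinb2*. In GENCODE M21 the pair overlap on one strand, but the deposited values are per RefSeq transcript, where they do not. Whether reads were split between them was not tested. *Calcrl*, a receptor gene 7449 bases from *Tfpi*, had 56.9, 15.1, 52.2 and 19.4 FPKM in the same order, unlike the even levels of *Tfpi*. The neighbours of *Plaur*, *Irgc1* and *Cadm4*, and that of *Thbd*, *Sstr4*, were at 0.1245 FPKM or less in every library.

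**Figure D4:**
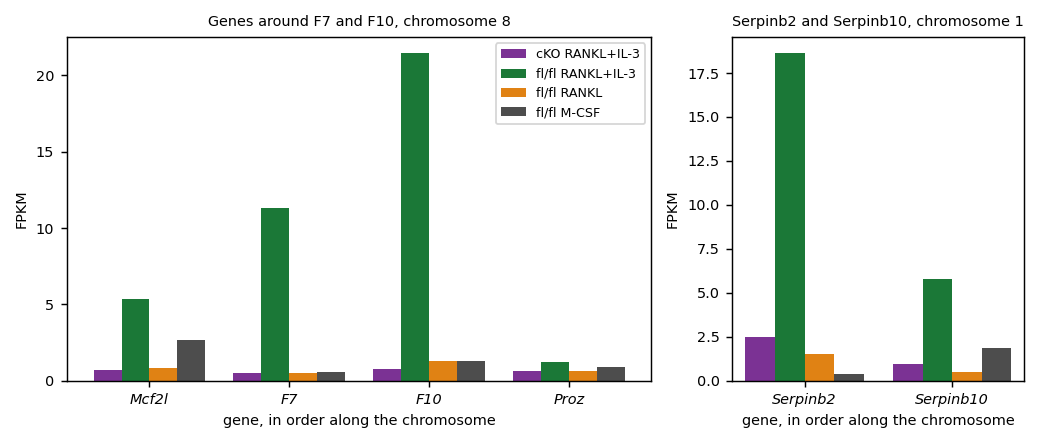
FPKM (vertical axis, from 0) of the genes around *F7* and *F10* (left) and of *Serpinb2* and *Serpinb10* (right), in their order along the chromosome and not to distance, 1 bar per library. The fl/fl library with RANKL+IL-3 has the tallest bar for all 6 genes, from 1.19 FPKM for *Proz* to 21.5 FPKM for *F10*.

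Genes with the nearest profile were listed for each member at least 2-fold apart in some comparison and at 5 FPKM or more, by the root mean square difference of centred log2(FPKM + 1) values over the 4 libraries among 8138 candidates. For *F10* they were *Retnla* (0.20), the short noncoding RNA gene *Bc1* (0.21) and *F7* (0.25). Outside the fl/fl library with RANKL+IL-3, *Retnla* and *Bc1* were at 0.0665 FPKM or less and *F10* at 0.725 to 1.29 FPKM. Their likeness to *F10* thus rests partly on the 1 FPKM added before the logarithm. For *F7* they were *Il1a* (0.11), *Plxdc2* (0.12) and *Socs2* (0.16). *Il1a*, the cytokine gene nearest to *F7*, had 0.233 FPKM in the cKO library, 7.30 FPKM in fl/fl cells with RANKL+IL-3, 0.198 FPKM with RANKL and 0.145 FPKM with M-CSF. For *Plaur* they were *Eps8* (0.07), *Pilrb1* (0.09) and *Tlr4* (0.12), and for *Serpinb2* they were *Itgax*, *Bcl2a1a* and *Il1rn* (0.37 to 0.38), a looser likeness. For *Plau* they were *Cd36* (0.03), *Hk3* (0.07) and *Rgs1* (0.07). *Cd36*, a scavenger receptor gene, had 235.9, 376, 139.9 and 711 FPKM in the same order of libraries. For *F13a1* they were *Cxcl14* (0.17), *Ctla2a* (0.24) and *Itgb5* (0.29), and for *Thbd* they were *Lbh* (0.06), *Cyp51* (0.08) and *Zdhhc14* (0.08). Each such profile rests on 4 values, 1 per library.

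The other genes of the pathway came from a list of 53, of which 21 reached 1 FPKM in at least 1 library. In cKO against fl/fl cells with RANKL+IL-3, 1 of the 21 was at least 2-fold higher and 3 were lower, against 2.12% and 4.28% of all genes. With IL-3 added to RANKL 4 were higher and 1 lower (6.11% and 3.47% of all genes), and with RANKL against M-CSF 2 were higher and 5 lower (5.44% and 6.87%). The median log2 ratios of the 21 genes were -0.09, 0.205 and -0.16 in these comparisons, beside 0.13, -0.15 and 0.14 for all genes. The substrates and most plasma proteases of the cascade were at or near 0. *F2*, *F8*, *F11*, *F12*, *F13b*, *Plg* and the fibrinogen genes *Fga*, *Fgb* and *Fgg* had at most 0.0341 FPKM in any library, and *Plat*, the gene of tissue plasminogen activator, had at most 0.0557 FPKM. *F5*, the gene of the cofactor of factor X, had 0.214 FPKM in the cKO library, 1.41 FPKM in fl/fl cells with RANKL+IL-3, 0.325 FPKM with RANKL and 0.460 FPKM with M-CSF. On the log2(FPKM + 1) scale it stayed within 2-fold, though its cKO ratio of -0.99 only just did. In FPKM, *F5* was 4.35-fold higher with IL-3 added and 6.59-fold lower in the cKO library, at low levels.

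Among anticoagulant genes, *Procr*, the receptor of protein C, had 10.1 FPKM in the cKO library, 19.8 FPKM in fl/fl cells with RANKL+IL-3, 5.27 FPKM with RANKL and 17.0 FPKM with M-CSF. *Pros1*, which encodes the protein C cofactor protein S, had 2.86, 6.26, 2.14 and 9.15 FPKM in the same order. Both were at least 2-fold lower with RANKL than with M-CSF and at least 2-fold higher with IL-3 added. On the log2(FPKM + 1) scale their cKO ratios of -0.91 each did not reach 2-fold. In FPKM the cKO library was 2.19-fold lower for *Pros1* and 1.96-fold lower for *Procr*. *F2rl2*, which encodes the thrombin receptor PAR3, had the course of *F7* and *F10*, at 0.114 FPKM in the cKO library, 3.65 FPKM in fl/fl cells with RANKL+IL-3, 0.263 FPKM with RANKL and 0.328 FPKM with M-CSF. The other thrombin receptor genes stayed below 1 FPKM in all 4 libraries.

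The serpin gene *Serpinb8* was the 1 gene of the pathway list at least 2-fold higher in cKO cells. Its log2 ratio was 1.27 in cKO against fl/fl cells and -1.62 with IL-3 added to RANKL. *Serpinb8* had 31.9 FPKM in the cKO library, 12.7 FPKM in fl/fl cells with RANKL+IL-3, 41.1 FPKM with RANKL and 8.10 FPKM with M-CSF. *Itgam*, the integrin subunit that pairs with *Itgb2* and associates with the urokinase receptor, had 141 FPKM in the cKO library, 351.5 FPKM in fl/fl cells with RANKL+IL-3, 103 FPKM with RANKL and 219.6 FPKM with M-CSF. Its log2 ratio was -1.31 in cKO against fl/fl cells, close to the -1.32 of *Plaur*. *Plgrkt*, the plasminogen receptor gene, had 27.9, 58.1, 29.9 and 26.1 FPKM in the same order and a cKO ratio of -1.03. *S100a10*, whose product with annexin A2 binds plasminogen, had 924, 769, 972 and 450.5 FPKM in that order, *Lrp1*, which clears urokinase and its inhibitor complexes, 127, 135.5, 117 and 236 FPKM, and the transglutaminase gene *Tgm2* 34.2, 24.4, 25.3 and 60.7 FPKM. Of these last 3, *S100a10* was higher with RANKL than with M-CSF (1.11), and *Tgm2* (-1.23) and, just past 2-fold, *Lrp1* were lower. The most abundant of the remaining genes were *Eno1*, *Anxa2* and *P4hb*, at 825 to 1147, 628 to 803 and 326 to 440.3 FPKM, each within 2-fold in every comparison.

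**Figure D5:**
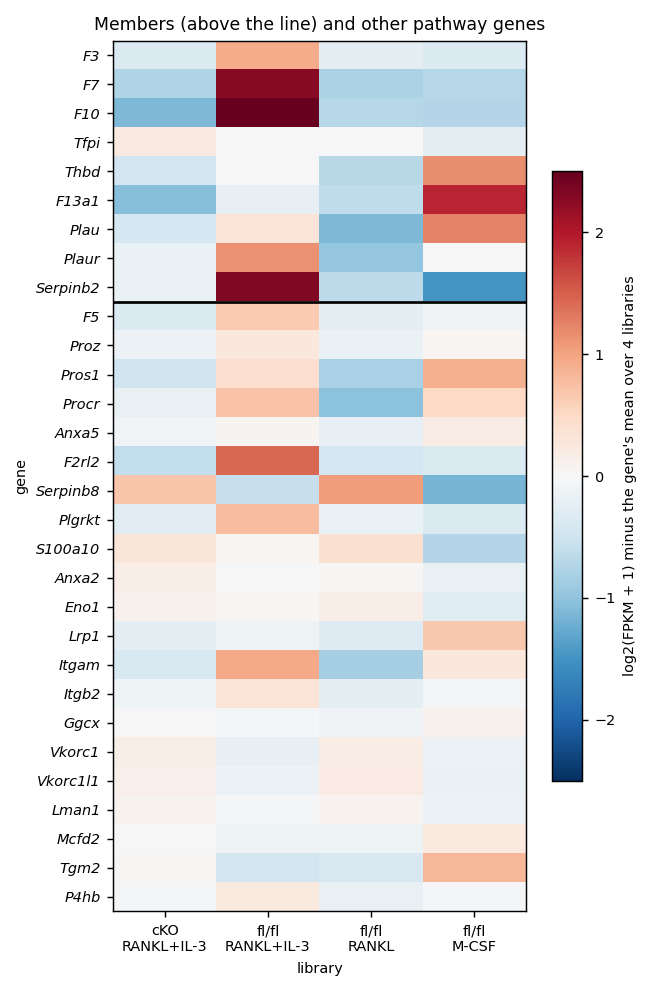
The 9 genes (above the line) and the 21 other pathway genes at 1 FPKM or more (below it) in the 4 libraries (columns), coloured by log2(FPKM + 1) minus the gene's own mean over the libraries. Red in the fl/fl column with RANKL+IL-3 is deepest for *F10*, *F7* and *Serpinb2*, and below the line for *F2rl2*, where the level was 3.65 FPKM, while *Serpinb8* is blue there.

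Markers of other cell types moved with some of these genes. Macrophage marker genes were at least 2-fold lower with RANKL than with M-CSF in 9 of 10 cases (6.87% of all genes). They were at least 2-fold higher with IL-3 added in 6 (6.11%) and at least 2-fold lower in cKO cells in 5 (4.28%). *Cd14* went the other way in cKO cells, at a log2 ratio of 0.75. At 2-fold, *Plau*, *F13a1* and *Thbd* had the direction of the macrophage markers past 2-fold with RANKL. With IL-3 added *Plau*, *F10*, *F7*, *F3*, *Plaur* and *Serpinb2* did, and in cKO cells the last 5 of these. Osteoclast markers past 2-fold took the opposite direction. Of 10, 7 were higher with RANKL (5.44% of all genes), 7 lower with IL-3 added (3.47%) and 5 higher in cKO cells (2.12%). *Itgb3* of the same list went the other way in each, within 2-fold, at -0.39, 0.23 and -0.60. Summed dendritic cell markers were 128 FPKM in the cKO library and 592, 117 and 172 FPKM in fl/fl cells with RANKL+IL-3, with RANKL and with M-CSF, mostly from *Cd74* and, in fl/fl cells with RANKL+IL-3, also from *Itgax* (99.7 FPKM). All 3 dendritic cell markers at 1 FPKM or more (*Cd74*, *Itgax* and *H2-Ab1*) were at least 2-fold lower in cKO cells and at least 2-fold higher with IL-3 added, as *F10*, *F7*, *F3*, *Plaur* and *Serpinb2* were, while *Flt3*, *Cd209a*, *Ccr7* and *Zbtb46* were below 1 FPKM. Summed megakaryocyte and platelet markers were 264, 1913, 123 and 676 FPKM in that order. That sum came nearly all from *Pf4* (1782 FPKM in fl/fl cells with RANKL+IL-3) and *Ppbp* (125 FPKM), whereas the platelet glycoprotein genes *Gp1ba*, *Gp1bb*, *Gp9*, *Gp5* and *Gp6* were at 0.602 FPKM or less in every library. Endothelial markers, relevant to *Thbd*, *Tfpi* and *Procr*, which endothelium is known to express, summed to 2.37, 2.26, 1.35 and 5.57 FPKM in that order. The sum was highest with M-CSF, as *Thbd* was. It came mostly from *Kdr* (1.41, 1.19, 0.646 and 3.75 FPKM) and *Cdh5* (0.728, 0.630, 0.377 and 1.46 FPKM). *Pecam1*, at 0.203, 0.371, 0.306 and 0.345 FPKM, was instead highest in fl/fl cells with RANKL+IL-3. *Tek*, *Cldn5* and *Emcn* were at 0.0640 FPKM or less. Neutrophil markers summed to 766, 1077, 734 and 1285 FPKM. The part of these cell types in the levels of the 9 genes was not tested.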

How the data were processed

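Total RNA of 4 BMM cultures was sequenced. Libraries were made by the authors with the TruSeq RNA kit and run on a HiSeq2000, and TopHat2 2.0.13, Cufflinks 2.2.1 and the build mm10 are named in the submitters' processing notes. The deposited values per RefSeq transcript are taken as FPKM, a unit inferred from Cufflinks and from the numbers themselves (mostly not integers, with unequal library sums). Its options, strandedness and pooling of mice were not given in the sources used here.

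The table held 33170 transcripts of 23920 genes, and transcripts were added per gene ID. Ratios were taken on log2(FPKM + 1) over 10764 genes at 1 FPKM or more in at least 1 library, without 45 small RNA genes recognised by symbol, and genes at least 2-fold apart were counted. There were 3 comparisons: cKO against fl/fl under RANKL+IL-3, RANKL+IL-3 against RANKL, and RANKL against M-CSF. With 1 library per condition nothing was tested. Members and lists were chosen with earlier results of these data known. Of the pathway list, 1 gene is not reported here and is in none of its counts. Genes named were the 9 members, other pathway genes at least 2-fold apart in a comparison and up to 3 of the most abundant others, the 3 nearest profiles, neighbours within 20 kb, *Stat5a* and *Stat5b*, with cell type markers from a list; *F5* and the genes at or near 0 were named after their values were seen.

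Sequencing depth was inferred from weakly expressed genes with 1 transcript of 3000 nt or longer, because FPKM multiplied by length then comes in whole fragments. Of these values 70.4% to 71.6% came within 0.2 of a whole fragment (40% if evenly spread), but the step was fitted to the same values. Intervals at 95% (Poisson for levels, Clopper-Pearson for ratios) use these fragments. Lengths came from GENCODE M21, positions and promoters from RefSeq tables of GRCm38.p6, and 7 of the 9 genes matched a promoter. Scripts ran in Python 3.11.15 with pandas 2.3.3, scipy 1.17.1 and matplotlib 3.10.9 and were tested on simulated data. The alternatives were another pseudocount, scaling, minimum, threshold or transcript choice.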

Additional observations from a re-analysis of the deposited data

How the results depend on the processing

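Of 108 counts of genes recomputed under 9 alternatives, 95 lay within 1.5 times the value given and 13 did not. Dropping the minimum or keeping small RNA genes could not change these counts. A gene below 1 FPKM in every library cannot be 2-fold apart on the log2(FPKM + 1) scale, and no listed gene is a small RNA gene. *Serpinb2* was the 1 member counted as higher with RANKL than with M-CSF at a pseudocount of 0.1 FPKM, and also the 1 at a threshold of 1.5-fold. Of all genes 7.52% and 15.6% were higher under these settings. At 4-fold, 3 members were lower in cKO cells (*F10*, *F7* and *Serpinb2*), against 1.0% of all genes. Of the other pathway genes, 1 (*Serpinb8*) was higher with RANKL than with M-CSF after scaling to a common median ratio, and 1 at 4-fold, where 0 were lower. Of all genes 4.05% were higher after that scaling, and 1.15% were higher and 1.51% lower at 4-fold. At 4-fold 0 of the pathway genes were higher and 0 lower with IL-3 added (1.63% and 0.687% of all genes). In cKO cells at 4-fold 0 were higher and 1 (*F2rl2*) was lower (0.316% and 1.0%). Pathway genes lower in cKO cells numbered 5 at a pseudocount of 0.1 FPKM, 6 after median scaling and 6 at 1.5-fold, against 3. The shares of all genes that were lower were 5.91%, 5.14% and 8.9%, against 4.28%. Among 186 recomputed ratios of the 9 genes, none that reached 2-fold changed direction. That outcome was largely fixed in advance. Another pseudocount cannot reverse a ratio, and the scaling shifts were far smaller than 2-fold. Transcript choice cannot move a gene with 1 transcript. Of the 186 ratios, 31 moved by more than their counting error, chiefly low genes at the smaller pseudocount and abundant genes under scaling. Of the 186, 24 came from the minimum of 5 FPKM, 27 from no minimum and 27 from keeping small RNA genes. These settings change only which genes are counted, so a gene's own ratio could not move under them. *F3* gave no value at a minimum of 5 FPKM.

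Over all genes, median scaling, which removes the medians of 0.13 (cKO against fl/fl), -0.15 (IL-3 added) and 0.14 (RANKL against M-CSF), changed the share of higher genes among those apart to 31.8% (436 higher, 937 lower), against 44.2%, for RANKL against M-CSF, and to 75.1% (818 higher, 271 lower), against 63.8%, for IL-3 added. A pseudocount of 0.1 FPKM gave 380 genes higher in cKO cells, against 228. At 1.5-fold and 4-fold the genes higher and lower numbered 908 and 958, and 34 and 108, in cKO cells (228 and 461 at 2-fold), 1304 and 1372, and 175 and 74, with IL-3 added (658 and 374), and 1681 and 1491, and 124 and 162, with RANKL against M-CSF (586 and 740). No paired analysis was possible because each condition had 1 library, which also leaves the spread between cultures unknown. Depth limits *F3* most, with an estimated 5 fragments in the cKO and M-CSF libraries.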
